A study of Mus musculus with 8 samples.

Results

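Bdnf, Ntf3, Ntrk2, Ntrk3, Sort1, Gfra1, Gfra2 and Ret encode 2 neurotrophins and 6 receptors or co-receptors for neurotrophins and for the ligands of the GDNF family, the growth factors named after glial cell line-derived neurotrophic factor. They are 8 of the 54532 genes in the count table of the cortex and were taken by their gene names, and all 8 were among the 17195 genes kept by the filter on low counts. Of the 8, Gfra1 was chosen by its normalized counts, which did not overlap between the genotypes, so the genotype difference of Gfra1 is described here without a test. Cortical RNA came from 4 PS19 mice and 4 Adrb1-A187V;PS19 mice, all 8 mo old, singly housed and of the C57BL/6 strain, with 1 library per mouse. All 8 mice carried the PS19 transgene, in which the mouse prion promoter drives 1N4R human tau with the P301S mutation. The Adrb1-A187V;PS19 mice were in addition heterozygous for a knock-in of the A187V mutation in Adrb1, which encodes the β1-adrenergic receptor. No mice without the transgene were sequenced, so the values describe tauopathy mice with and without the Adrb1 mutation. The mice are numbered 1 to 4 within a genotype, and the numbers do not pair them.

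The total was between 14653222 and 21223754 counts per mouse, and no marker of the 9 cell types examined, cortical neurons and glia among them, was at 0 counts in any mouse. CPM are counts scaled by a library's total over the genes kept by the filter and by its TMM normalization factor. Adrb1 itself had 36.8 ± 4.19 CPM (SD, n = 4) in PS19 mice, beside 35.0 ± 3.71 (SD, n = 4) with the mutation. Counts per gene cannot show a missense allele, so these values do not check the genotype labels. Of all genes tested, 2.8% had an unadjusted p-value under 0.05 in edgeR's quasi-likelihood test, 1.42% with higher and 1.37% with lower expression in Adrb1-A187V;PS19 mice. In bulk tissue, fewer cells of a type cannot be told apart from less RNA per cell.

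Neurotrophins are secreted growth factors that are cut from larger precursors. Mature neurotrophins activate the Trk receptor tyrosine kinases, whereas the precursors bind the p75 neurotrophin receptor together with sortilin. Ligands of the GDNF family bind a GFRα co-receptor anchored in the membrane by a lipid, and the complex activates the receptor tyrosine kinase Ret. In the cortex, Bdnf is made mainly by excitatory neurons, and its transcription follows neuronal activity through several alternative promoters.

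RefSeq gave 11 promoter windows for 4 of the 8 genes, namely 7 for Bdnf, 2 for Ntf3 and 1 each for Ntrk2 and Gfra1. Each window was read over the 250 bases before the start of transcription, and Ntrk3, Sort1, Gfra2 and Ret had no entry. The β1-adrenergic receptor signals through cyclic AMP, so the windows were searched on both strands for TGACG, the half-site of the cyclic AMP response element, and for the full element TGACGTCA, which holds the half-site. The half-site was in 1 of the 11 windows, and the full element was in none of them, against 17.8% and 1.55% of the 32851 RefSeq windows of the same length. The window that held it precedes 1 of the alternative first exons of Bdnf on the plus strand (chr2:109692186-109692435, GRCm38.p6), and it is shown because Bdnf was the one of the 7 tested members with an unadjusted p-value under 0.05. The capitals mark the match, which is the half-site read on the minus strand and starts at position -35 counted from the start of transcription.
Bdnf window: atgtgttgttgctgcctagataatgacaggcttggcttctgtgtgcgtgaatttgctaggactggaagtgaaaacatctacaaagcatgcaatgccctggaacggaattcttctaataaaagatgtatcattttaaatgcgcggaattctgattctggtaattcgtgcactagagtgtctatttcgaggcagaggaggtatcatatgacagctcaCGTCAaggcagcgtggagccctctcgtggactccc
A match of these letters describes the window and no binding, and counts per gene do not show which of the Bdnf promoters was used.

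Among the ligands, Bdnf, which encodes brain-derived neurotrophic factor, had slightly lower levels in Adrb1-A187V;PS19 mice. Bdnf (ENSMUSG00000048482, chr2:109674700-109727007, plus strand) had 26.7, 29.7, 29.9 and 34.6 CPM in PS19 mice 1 to 4 and 23.9, 25.6, 27.5 and 28.1 CPM in Adrb1-A187V;PS19 mice 1 to 4. PS19 mouse 1 lay below the highest 2 mice of the other genotype, so the groups overlapped. Their means were 30.2 ± 3.25 (SD, n = 4) and 26.3 ± 1.94 CPM (SD, n = 4), which gave a log2 fold change of -0.20 ± 0.09 (SE) and a 95% interval from -0.39 to -0.01. The unadjusted p was 0.0383 in edgeR's quasi-likelihood test, and the Benjamini-Hochberg adjusted p over all genes tested was 0.9996. Of the 7 genes other than Gfra1, Bdnf was the 1 that passed the unadjusted threshold, beside 2.8% of all genes tested. None of the 7 had an adjusted p-value under 0.05 with edgeR, and 0% of all genes tested did. The unadjusted p of Bdnf was between 0.0506 and 0.150 when PS19 mouse 2, 3 or 4 or Adrb1-A187V;PS19 mouse 1 or 2 was left out, with a log2 fold change between -0.25 and -0.13 over all 14 alternative fits.

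Of 6 markers of cortical excitatory neurons, 3 were lower in Adrb1-A187V;PS19 mice, as Bdnf was. The summed level of the 6 markers was between 1437 and 1660 CPM in PS19 mice and between 1287 and 1489 CPM in Adrb1-A187V;PS19 mice, with overlap. The vesicular glutamate transporter gene Slc17a7 (log2 fold change -0.19), Neurod6 (-0.27) and Tbr1 (-0.13) passed the unadjusted threshold, and none of the 6 had a positive log2 fold change. Of all genes tested, 1.37% passed with lower values, and the marker list was chosen with earlier results of these data known. Neurod6 passed in all 14 alternative fits. Slc17a7 lost the call without PS19 mouse 2 or 4 or without Adrb1-A187V;PS19 mouse 3 or 4, with p up to 0.0784. Tbr1 had an unadjusted p of 0.04995 in edgeR's test and lost the call in 7 fits, with an unadjusted p of up to 0.159. These included the fits without PS19 mouse 3 or 4 or without Adrb1-A187V;PS19 mouse 2, 3 or 4. The part of these markers in the value of Bdnf was not tested.

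Genes that BDNF or neuronal activity induces were also examined. The list of 9 comprised Arc, Egr1, Fos, Npas4, Nr4a1, Vgf, Nptx2, Dusp6 and Spry4. All 9 had a negative log2 fold change, with a median of -0.14 beside 0.00 over all genes tested. The list was chosen with earlier results of these data known. Of the 9, 1 passed the unadjusted threshold, beside 2.8% of all genes tested. This gene, Vgf, which encodes a secreted neuropeptide precursor, had 350.4 ± 34.0 CPM (SD, n = 4) in PS19 mice, and 304.7 ± 41.0 CPM (SD, n = 4) with the mutation, which gave -0.20 ± 0.09 on the log2 scale (SE; edgeR, unadjusted p = 0.0436). Without PS19 mouse 2 or 4 or Adrb1-A187V;PS19 mouse 2 or 3, its p was between 0.109 and 0.155. The immediate early gene Arc had the same log2 difference, -0.20, with an SE of 0.56, and its level varied from 38.7 to 249.6 CPM among the mice. Without PS19 mouse 3, only 3 of the 9 were negative and the median was 0.06.

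Ntf3, which encodes neurotrophin 3, was close to the limit of detection. Ntf3 (ENSMUSG00000049107, chr6:126101412-126166910, minus strand) had 12, 13, 5 and 13 counts in PS19 mice 1 to 4 and 8, 31, 11 and 10 counts in Adrb1-A187V;PS19 mice 1 to 4. These were 0.735, 0.897, 0.236 and 0.783 CPM in the first group and 0.480, 1.48, 0.616 and 0.566 CPM in the second. Adrb1-A187V;PS19 mouse 2 was above all others and PS19 mouse 3 below all others. Among the remaining mice, every PS19 mouse was above every Adrb1-A187V;PS19 mouse. Between the genotypes, Ntf3 differed by 0.31 ± 0.47 on the log2 scale (SE), with a 95% interval from -0.70 to 1.33 (edgeR, unadjusted p = 0.516), an interval that allows a change of either sign. The sign of the log2 fold change depended on these mice, at -0.0027 without PS19 mouse 3 and -0.21 without Adrb1-A187V;PS19 mouse 2.

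**Figure D1:**
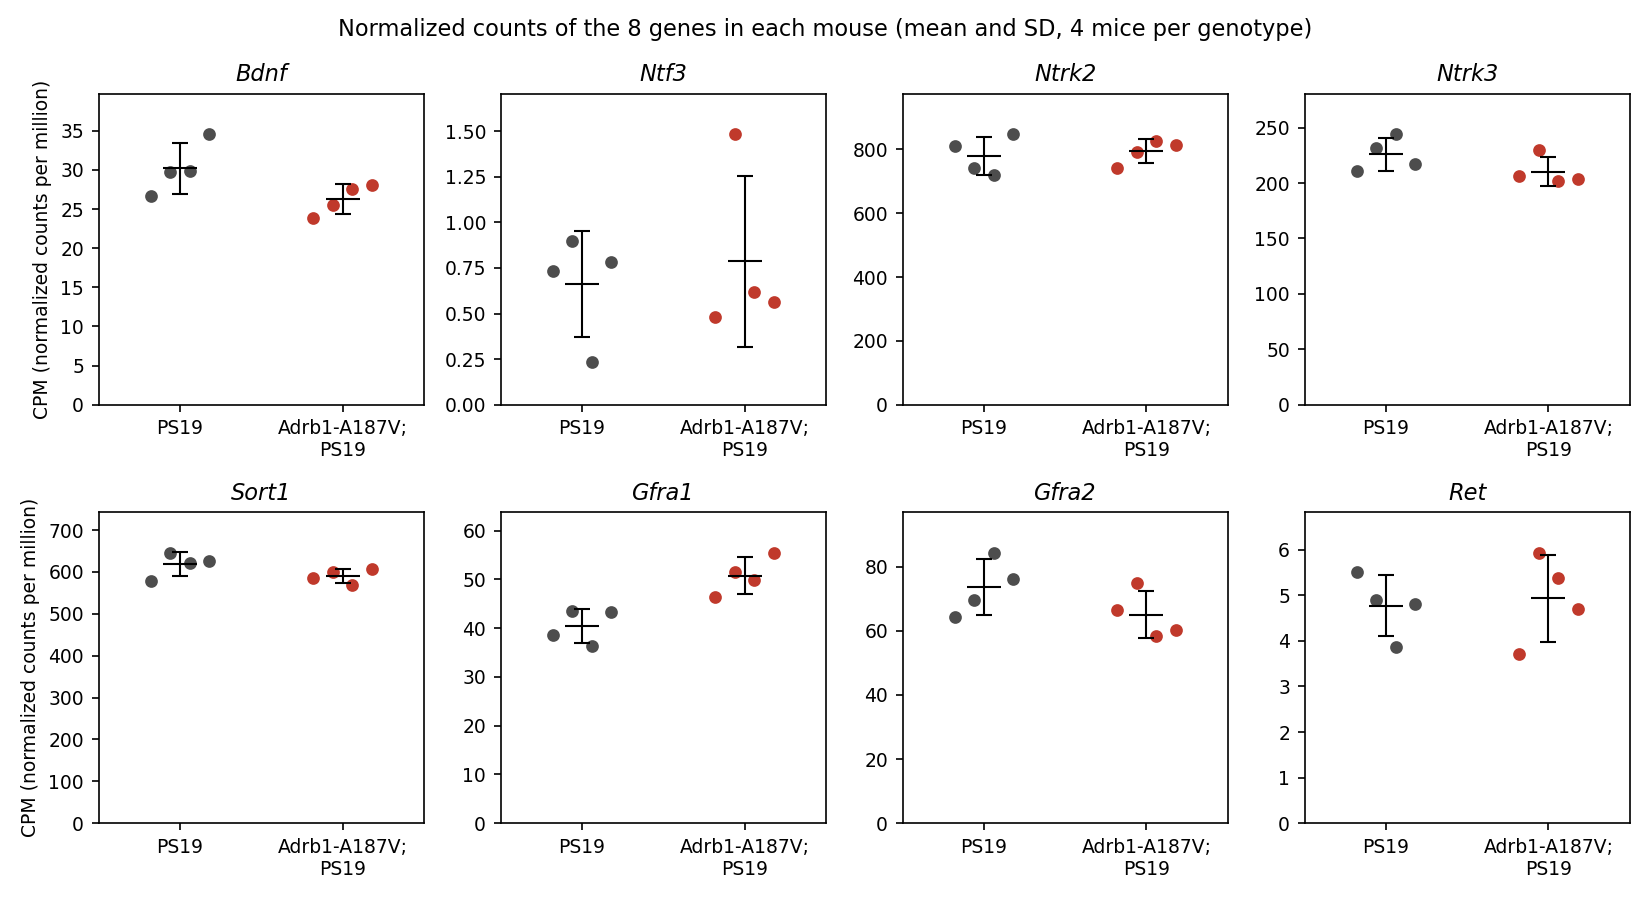
Normalized counts (CPM, from 0, with a scale of its own per gene) of the 8 genes in each of the 4 PS19 mice (grey) and 4 Adrb1-A187V;PS19 mice (red), with bars for mean and SD. The Gfra1 points of the genotypes do not overlap, which is why the gene was chosen, and those of each other gene do.

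Ntrk2, the most highly counted of the 8 genes, encodes TrkB, the receptor of BDNF and neurotrophin 4, in a full-length form with a kinase domain and in truncated forms that are abundant in astrocytes. Counts per gene sum over these forms. Ntrk2 (ENSMUSG00000055254, chr13:58806569-59133970, plus strand) had 811, 741, 718 and 848 CPM in PS19 mice 1 to 4 and 741, 792, 827 and 815 CPM in Adrb1-A187V;PS19 mice 1 to 4. The lowest and the highest mouse were both PS19 mice, and the other genotype lay between them. The log2 fold change was 0.03 ± 0.06 (SE), with a 95% interval from -0.10 to 0.15 (edgeR, unadjusted p = 0.654). Without PS19 mouse 3, the log2 fold change was -0.01.

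From mouse to mouse, Ntrk2 varied with a gene of astrocytes. By Pearson's r of the deviations from the genotype means over the 8 mice, the gene most like Ntrk2 among 12134 genes with a mean of at least 5 CPM was Slc1a3, which encodes the astrocytic glutamate transporter GLAST (r = 0.99). Slc1a3 had 536 ± 46.3 CPM (SD, n = 4) in PS19 mice, and 564 ± 31.9 CPM (SD, n = 4) with the mutation. The 6 astrocyte markers summed to between 1235 and 2043 CPM in PS19 and between 1301 and 2101 CPM in Adrb1-A187V;PS19 mice, and Gfap alone ranged from 182 to 838 CPM over the 8 mice. Of the 6, Slc4a4 alone passed the unadjusted threshold (log2 fold change 0.21), beside 2.8% of all genes tested. It did so in all 14 alternative fits, and this list, too, was chosen with earlier results of these data known. The part of astrocyte RNA in the level of Ntrk2 was not tested, and an r that is the highest of many genes is a description of these 8 libraries.

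Ntrk3 encodes TrkC, the receptor of neurotrophin 3. Ntrk3 (ENSMUSG00000059146, chr7:78175959-78738012, minus strand) had 211, 232, 244 and 217 CPM in PS19 mice 1 to 4 and 206, 229.9, 201 and 203 CPM in Adrb1-A187V;PS19 mice 1 to 4. Of the Adrb1-A187V;PS19 mice, 3 were lower than every PS19 mouse, and mouse 2 lay among the PS19 mice. On the log2 scale, Ntrk3 differed by -0.10 ± 0.06 (SE), with a 95% interval from -0.23 to 0.03 (edgeR, unadjusted p = 0.110). The p was 0.0273 without Adrb1-A187V;PS19 mouse 2 and 0.0495 without PS19 mouse 1. The antisense gene Gm9885 lies within Ntrk3 on the other strand with 46 to 85 counts per mouse, and because the strand setting of the counting is not given in the sources used here, reads of the pair may not be fully separated. Each other gene that overlaps a member reached 24 counts or fewer per mouse, and Ntf3, Gfra2 and Ret overlapped none.

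Sort1 encodes sortilin, the co-receptor for neurotrophin precursors, which also sorts BDNF within the cell. Sort1 (ENSMUSG00000068747, chr3:108284082-108361511, plus strand) had 579, 646, 620.5 and 627 CPM in PS19 mice 1 to 4 and 586, 600.4, 569 and 607 CPM in Adrb1-A187V;PS19 mice 1 to 4. PS19 mouse 1 lay inside the range of the other genotype, and the remaining 3 PS19 mice lay above it. For Sort1, the log2 fold change was -0.07 ± 0.05 (SE), with a 95% interval from -0.17 to 0.03 (edgeR, unadjusted p = 0.181). Sort1 varied least of the 8 genes, with a coefficient of variation of 3.83% among mice of a genotype.

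Gfra1 encodes GFRα1, the co-receptor that binds GDNF. Gfra1 (ENSMUSG00000025089, chr19:58235604-58455909, minus strand) had 38.5, 43.5, 36.4 and 43.4 CPM in PS19 mice 1 to 4 and 46.3, 51.4, 50.0 and 55.5 CPM in Adrb1-A187V;PS19 mice 1 to 4. Every Adrb1-A187V;PS19 mouse was above every PS19 mouse, which is the property the gene was picked for, and 2.02% of all genes tested shared it in either direction. The gap between the groups ran from 43.5 to 46.3 CPM. Just outside this criterion were Bdnf and Sort1, in which PS19 mouse 1 alone lay within the range of the other genotype, and Ntrk3, in which Adrb1-A187V;PS19 mouse 2 alone did. The means of Gfra1 were 40.5 ± 3.54 (SD, n = 4) and 50.8 ± 3.81 CPM (SD, n = 4), which is 25.6% higher with the mutation and 0.33 ± 0.08 (SE) as a log2 fold change. This value was between 0.28 and 0.37 over the 14 alternative fits. Because of how the gene was chosen, its sign could not reverse when 1 mouse was left out.

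**Figure D2:**
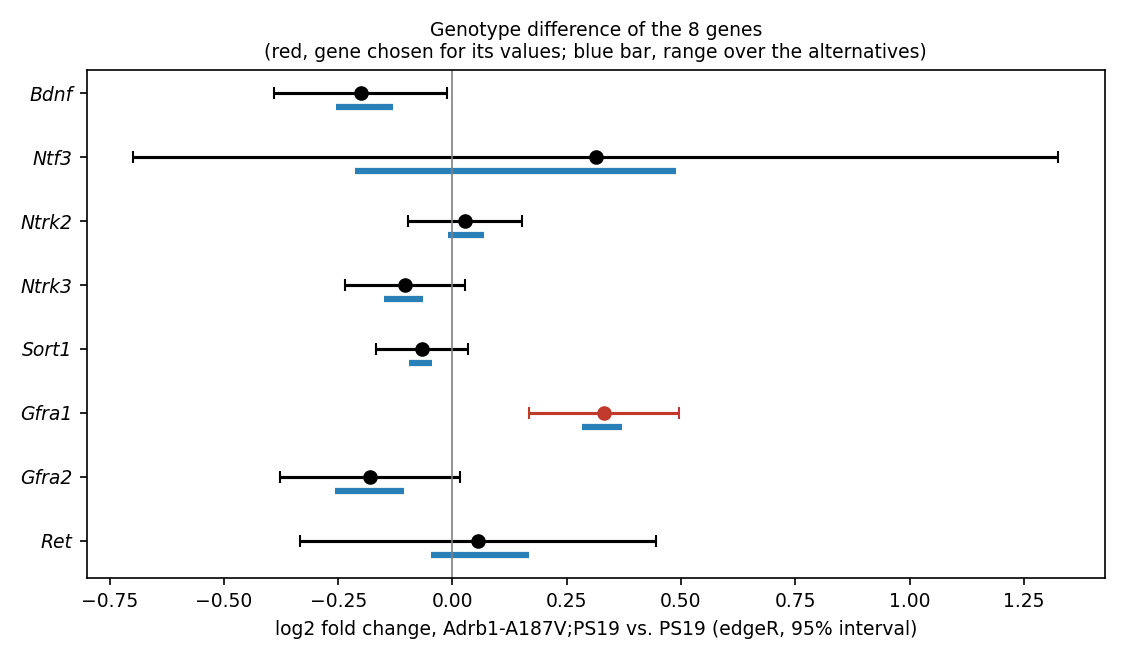
Genotype difference of the 8 genes as log2 fold change of Adrb1-A187V;PS19 vs. PS19 mice (x axis; points, edgeR estimate; whiskers, 95% interval), with a blue bar for the range over 14 alternative fits. The interval of Bdnf ends at -0.01, and those of Ntf3, Ntrk2, Ntrk3, Sort1, Gfra2 and Ret include 0. Gfra1 (red, 0.33) was chosen for its values and is shown as a description, so its whiskers are not a test of a difference.

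Gfra1 lies on the chromosome of Adrb1, 1510742 bases beyond its end. Of the 8 tested genes between Adrb1 and Gfra1, 0 had an unadjusted p-value under 0.05 in edgeR's test, beside 2.8% of all genes tested. A positive log2 fold change was found for 2 of the 8, and the median of the 8 was -0.03. The part of this position in the value of Gfra1 was not tested.

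Markers of basal forebrain cholinergic neurons, which lie near the cortex and send fibres into it, were also higher with the mutation. The 7 markers summed to 16.4, 34.4, 21.3 and 28.8 CPM in PS19 mice 1 to 4 and to 42.4, 39.7, 35.7 and 50.5 CPM in Adrb1-A187V;PS19 mice 1 to 4. These sums did not overlap between the genotypes, with 34.4 and 35.7 CPM on the 2 sides of the gap. Of the 7 markers taken singly, 1 (Lhx8) did not overlap, beside 2.02% of all genes tested. Adrb1-A187V;PS19 mouse 4 was the highest both in the sums and in Gfra1. Mouse 1 of this genotype was second highest in the sums and the lowest of its genotype in Gfra1. The lowest PS19 mouse was mouse 1 in the sums and mouse 3 in Gfra1. All 7 markers, each with a mean between 1.85 and 10.8 CPM, passed the unadjusted threshold with higher values and a median log2 fold change of 0.79. Of the 7, Slc18a3 lies within Chat on the same strand, so reads of this pair may not be fully separated. Of all genes tested, 1.42% passed with higher values. The list was chosen with earlier results of these data known, so the number that passed is a description. The number that passed was 3 without PS19 mouse 1, 4 without Adrb1-A187V;PS19 mouse 4 and 5 to 7 in every other alternative fit. The markers of striatal projection neurons, also 7, summed to between 769 and 1567 CPM in PS19 and between 798 and 1735 CPM in Adrb1-A187V;PS19 mice, and all 7 had positive log2 fold changes with a median of 0.32 and 0 passed in edgeR's test. The part of either list in the value of Gfra1 was not tested.

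Markers of cortical interneurons differed in both directions. The 6 markers summed to between 1029 and 1084 CPM in PS19 and between 1039 and 1167 CPM in Adrb1-A187V;PS19 mice. Gad2 (log2 fold change 0.24), which encodes a GABA-synthesizing enzyme, and Slc32a1 (0.18), the vesicular GABA transporter gene, were higher, and Vip (-0.19), which encodes a neuropeptide, was lower. These genes passed the unadjusted threshold, beside 2.8% of all genes tested, in a list also chosen with earlier results known. Gad2 passed the unadjusted threshold in all 14 alternative fits. Slc32a1 lost the call without PS19 mouse 1, 3 or 4 or Adrb1-A187V;PS19 mouse 1, and Vip lost it without PS19 mouse 1 or 3 or Adrb1-A187V;PS19 mouse 1, 3 or 4. Their part in the value of Gfra1 was not tested either.

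Gfra2 encodes GFRα2, the co-receptor that binds neurturin. Gfra2 (ENSMUSG00000022103, chr14:70890120-70979838, plus strand) had 64.2, 69.5, 84.4 and 76.2 CPM in PS19 mice 1 to 4 and 66.4, 74.8, 58.4 and 60.3 CPM in Adrb1-A187V;PS19 mice 1 to 4. PS19 mice 3 and 4 were the highest and Adrb1-A187V;PS19 mice 3 and 4 the lowest, with the other 4 mice interleaved. Gfra2 differed by -0.18 ± 0.09 on the log2 scale (SE), with a 95% interval from -0.38 to 0.02 (edgeR, unadjusted p = 0.0708). Without PS19 mouse 1 the p was 0.0212, and without Adrb1-A187V;PS19 mouse 2 it was 0.0127, while edgeR gave 0.0111 with every gene of at least 1 count in the fit.

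The ratio of Gfra1 to Gfra2 CPM within a mouse was 0.600, 0.626, 0.432 and 0.569 in PS19 mice 1 to 4 and 0.697, 0.688, 0.856 and 0.920 in Adrb1-A187V;PS19 mice 1 to 4. The groups did not overlap in this ratio, whose mean was 0.557 ± 0.0863 (SD, n = 4) in PS19 mice and 0.790 ± 0.116 (SD, n = 4) with the mutation. As Gfra1 was chosen for its values, the ratio is a description.

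Ret, the receptor tyrosine kinase shared by the GFRα co-receptors, was low in the cortex. Ret (ENSMUSG00000030110, chr6:118151745-118197718, minus strand) had 5.51, 4.90, 3.87 and 4.82 CPM in PS19 mice 1 to 4 and 3.72, 5.94, 5.37 and 4.70 CPM in Adrb1-A187V;PS19 mice 1 to 4. The lowest and the highest mouse were both Adrb1-A187V;PS19 mice. The genotypes differed by 0.06 ± 0.18 on the log2 scale (SE), with a 95% interval from -0.33 to 0.45 (edgeR, unadjusted p = 0.759). Its sign changed without PS19 mouse 3 (-0.04) and without Adrb1-A187V;PS19 mouse 2 (-0.05). With 62 to 124 counts per mouse, a difference of the size of that of Gfra1 lies inside the interval of Ret.

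The levels of the 8 genes were compared with each other per length, as CPM per kilobase of the gene length in the table. The mean over the 8 mice was 79.9 for Sort1, 40.8 for Ntrk2, 19.6 for Gfra2, 8.33 for Gfra1, 7.23 for Ntrk3, 4.54 for Bdnf, 0.718 for Ret and 0.423 for Ntf3. Neighbours in this order had ranges over the 8 mice that did not overlap, except Gfra1 and Ntrk3, and Ret and Ntf3. Within the GDNF family, both co-receptors thus stood above their signalling partner Ret, with Gfra1 at 10.6 ± 1.33 times Ret per length (SD, n = 4) in PS19 mice and 13.0 ± 2.29 times (SD, n = 4) with the mutation.

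The order of the levels rested in part on the length used. For each of the 8 genes the table's length exceeds that of the longest coding GENCODE transcript. With the latter in its place, an alternative chosen after the data were seen, the mean of Ntrk2 was 90.0, that of Sort1 88.4 and that of Ntrk3 11.1 CPM per kilobase. The ranges of Ntrk2 and Sort1 then overlapped, as did those of Ntrk3 and Gfra1 (9.83) and of Gfra1 and Bdnf (6.62). Ret (0.890) and Ntf3 (0.489) remained the lowest of the 8 by either length.

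**Figure D3:**
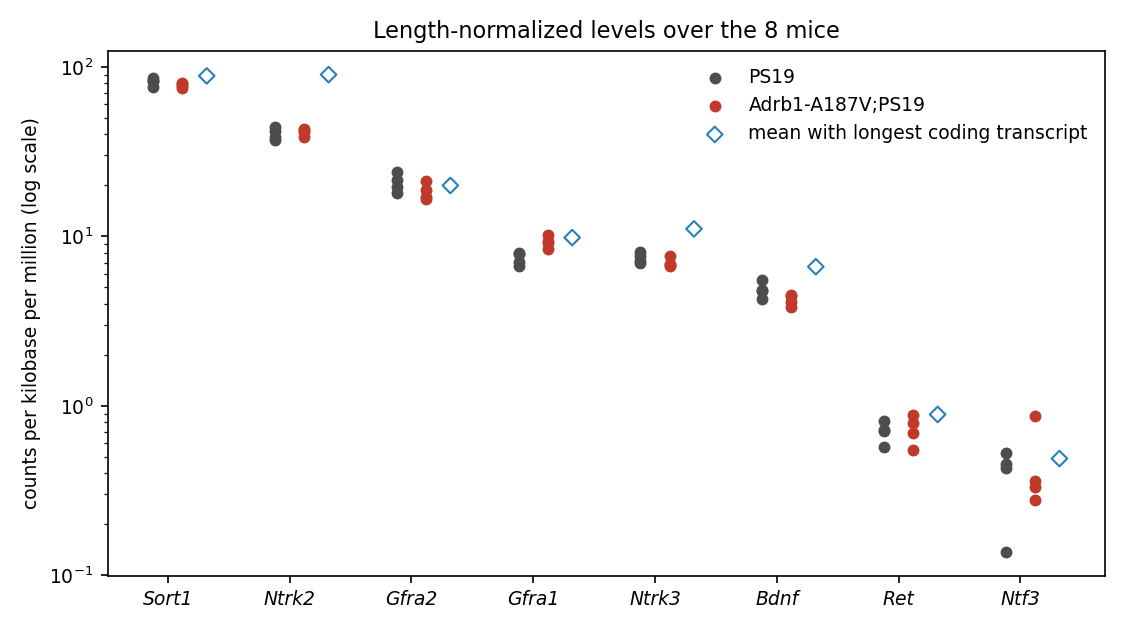
Level of the 8 genes per length (y axis, CPM per kilobase, log scale) in PS19 (grey) and Adrb1-A187V;PS19 mice (red), 1 point per mouse, with a blue diamond for the mean when the longest coding transcript is the length. Sort1 (79.9) and Ntrk2 (40.8) are highest and Ret (0.718) and Ntf3 (0.423) lowest, and the diamond lies well above the points for Ntrk2.

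The 8 genes differed in how much mice of the same genotype varied. The coefficient of variation within a genotype was 6.40% for Ntrk2, 6.49% for Ntrk3, 8.05% for Gfra1, 9.48% for Bdnf, 11.7% for Gfra2, 17.1% for Ret and 53.9% for Ntf3, beside a median of 10.6% over all genes tested. Counting error alone was 27.9% for Ntf3 and 10.8% for Ret, but 0.848% for Ntrk2 and 2.84% for Gfra2, well below the spread of these 2 genes between mice.

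Pairs of the 8 genes were compared over the 8 mice on the log2 scale. Of 28 pairs, 2 had an unadjusted p-value under 0.05 and 0 an adjusted one (exact permutation test over all pairings, 2-sided, Benjamini-Hochberg over the 28). Ntrk3 and Gfra2 had Pearson's r = 0.88 (exact permutation p = 0.00446, adjusted 0.125) and Spearman's rho = 0.88 (p = 0.00724, adjusted 0.203). Without the 2 mice farthest from the median of Ntrk3, r was 0.88, and it was 0.74 within PS19 and 0.94 within Adrb1-A187V;PS19 mice. Ntf3 and Ret had r = 0.81 (exact permutation p = 0.0128, adjusted 0.180) and rho = 0.79 (p = 0.0279, adjusted 0.388), and r was 0.60 without the 2 mice farthest from the median of Ntf3, 0.86 within PS19 and 0.79 within Adrb1-A187V;PS19 mice. For the ligand Bdnf and its receptor Ntrk2, r was 0.28 (exact permutation, unadjusted p = 0.513), but -0.71 without the 2 mice farthest from the median of Bdnf, 0.34 within PS19 and 0.95 within Adrb1-A187V;PS19 mice. For Ntf3 and Ntrk3, r was -0.05 (exact permutation, unadjusted p = 0.912), but 0.83 without the 2 farthest mice, -0.70 within PS19 and 0.94 within Adrb1-A187V;PS19 mice. Both of these values over all mice thus rested on few of them.

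For the other genes, the most similar deviations from the genotype means among the 12134 genes were as follows. Bdnf was most like Sema6d (r = 0.98), which encodes a semaphorin, and Colgalt2 (0.97). Gfra1 was most like Gabrb1 (0.997), which encodes a GABA-A receptor subunit, and Map2 (0.99), the gene of a dendritic microtubule-associated protein. Between the genotypes, Gabrb1 differed by 0.03 and Map2 by 0.02 on the log2 scale, beside 0.33 for Gfra1. Gfra2 was most like Ube2k (0.99) and Tmem132d (0.98), Ntrk3 like Ccser1 (0.98) and A830018L16Rik (0.98), and Sort1 like Nmt2 (0.98) and Dclk1 (0.97). The second most like Ntrk2 was Alg9 (0.98), while Ntf3 was most like Ppp6r2 (0.97) and Dpm1 (0.96) and Ret like Ep400 (0.98) and Adck5 (0.97). These are the highest of 12134 values of r over 8 mice and are given as a description.

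The wider pathways were taken from a list of 54 genes, the 8 members included, of which 51 were tested. Of the 50 other than Gfra1, 3 had an unadjusted p-value under 0.05 in edgeR's test, with Ngfr higher and Bdnf and Vgf lower, and without the members 2 of 43, or 4.65%, passed, beside 2.8% of all genes tested. Of the 50, 6 passed without PS19 mouse 1 and 1 without PS19 mouse 3 or 4. The median log2 fold change of the 50 was -0.04, beside 0.00 over all genes tested.

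Ngfr, which encodes the p75 neurotrophin receptor, was higher in Adrb1-A187V;PS19 mice. Ngfr had 2.94, 3.93, 2.93 and 6.93 CPM in PS19 mice 1 to 4 and 7.32, 8.33, 4.87 and 6.23 CPM in Adrb1-A187V;PS19 mice 1 to 4. PS19 mouse 4 lay among the mice of the other genotype. Ngfr differed by 0.69 ± 0.26 on the log2 scale (SE; edgeR, unadjusted p = 0.0209), and without PS19 mouse 1, PS19 mouse 3 or Adrb1-A187V;PS19 mouse 2 the p was between 0.0643 and 0.0661. Ngfr is also 1 of the 7 cholinergic markers above, so the 2 lists are not separate.

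**Figure D4:**
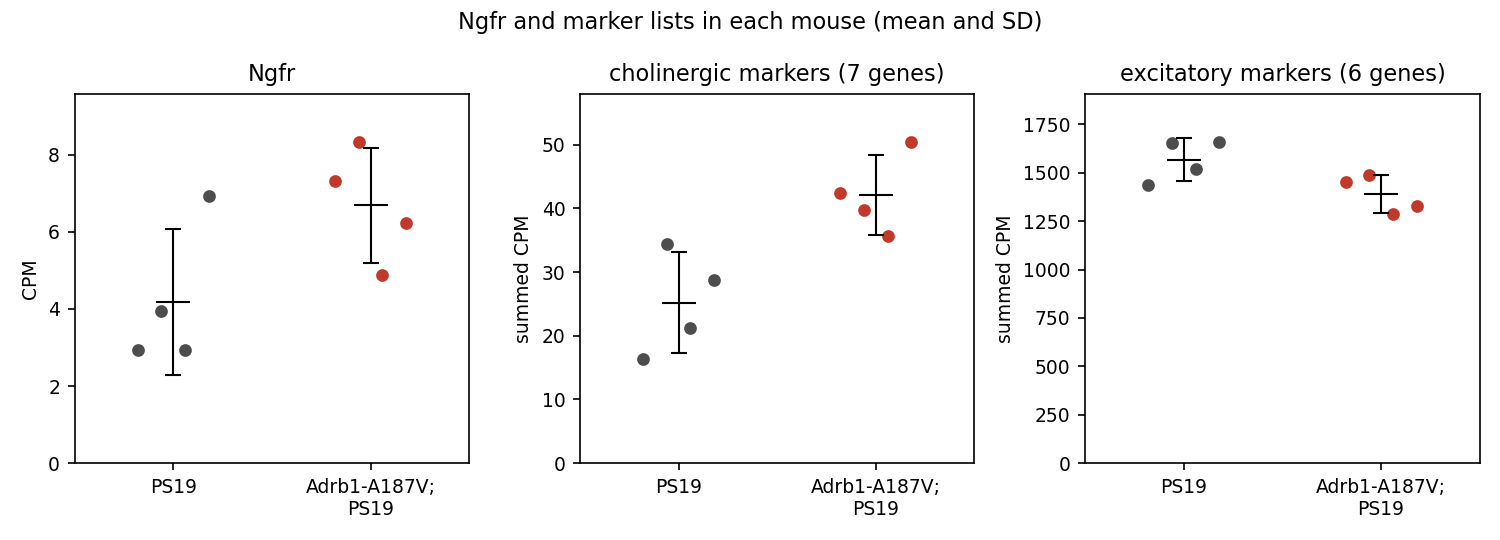
Ngfr (CPM) and the summed CPM of the cholinergic and excitatory neuron marker lists in each of the 4 PS19 (grey) and 4 Adrb1-A187V;PS19 mice (red), with mean and SD. The cholinergic sums run from 16.4 to 34.4 in PS19 and from 35.7 to 50.5 in Adrb1-A187V;PS19 mice, while the other 2 panels overlap between the genotypes.

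The ligands of the GDNF family were low. Gdnf had 3 to 20 counts per mouse and differed by 0.57 ± 0.49 on the log2 scale (SE), and Artn, which encodes artemin, had 4 to 19 counts and differed by -0.50 ± 0.49 (SE). Nrtn, which encodes neurturin, the ligand of GFRα2, had 3.85 ± 0.828 CPM (SD, n = 4) in PS19 mice, and 3.82 ± 0.934 CPM (SD, n = 4) with the mutation. The ligand genes Ntf5, with 2 to 7 counts, and Pspn, with 2 to 13 counts, were below the filter, and Gfra3 had 3 counts in PS19 mouse 1 and 0 in the other 7 mice. Gfra4, the co-receptor gene for persephin, had 42.1 ± 1.81 CPM (SD, n = 4) in PS19 and 42.1 ± 1.98 CPM (SD, n = 4) with the mutation, and its log2 difference was 0.00 ± 0.06 (SE).

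Other receptor and signalling groups held no further gene past the unadjusted threshold in edgeR's test. The 4 relatives of sortilin had log2 fold changes from -0.11 (Sorl1) to 0.06 (Sorcs3). The alternative GDNF receptors Ncam1 (-0.01) and Sdc3 (0.00) had standard errors of 0.05 and 0.07. The 7 genes of precursor processing, which hold the convertase gene Furin (-0.09) and the tissue plasminogen activator gene Plat (0.04), had a median of -0.04, and the 16 adaptors of Trk and Ret signalling had a median of -0.02, from -0.13 for Gab1 to 0.10 for Dok4.

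**Figure D5:**
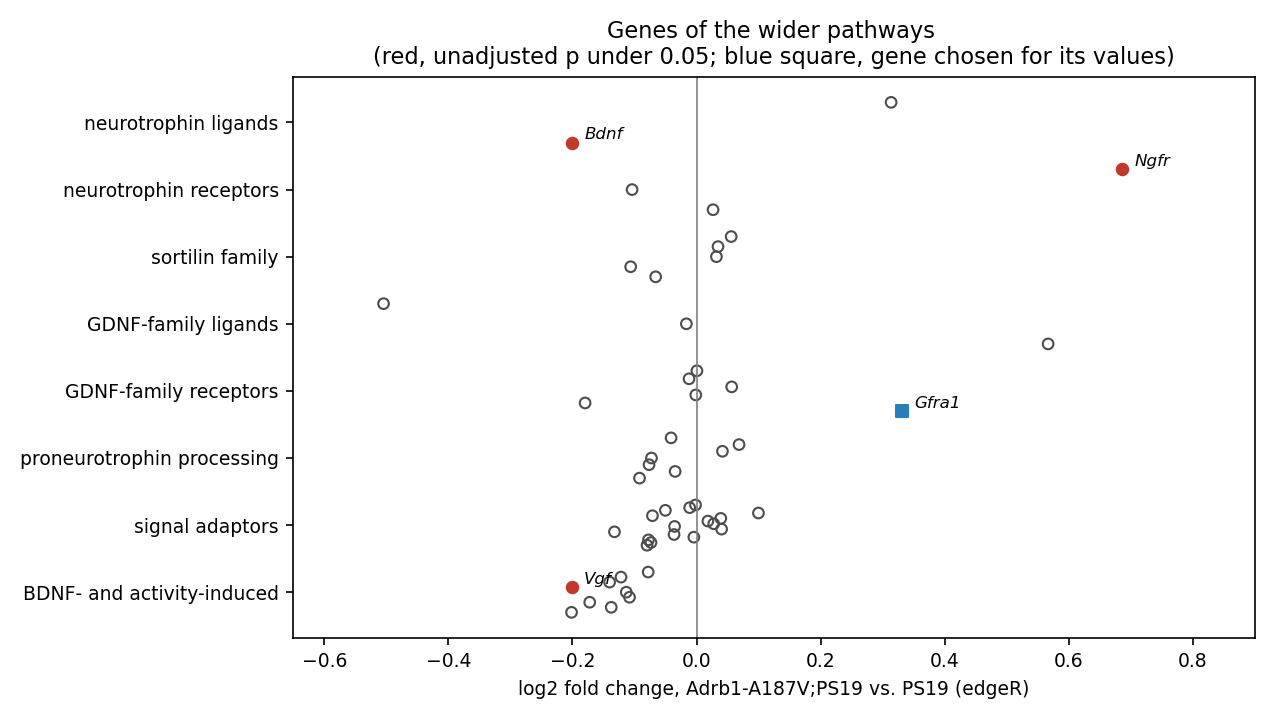
Log2 fold change of Adrb1-A187V;PS19 vs. PS19 mice (x axis, edgeR) of the 51 tested genes of the wider pathways, 1 point per gene in 8 groups (y axis; height within a group has no meaning). Red points have an unadjusted p under 0.05 (Bdnf, Ngfr and Vgf), and the blue square is Gfra1, chosen for its values. The adaptors and processing genes other than Gab1 (-0.13) lie within 0.10 of 0, and the 9 induced genes all lie below 0.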

How the data were processed

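Per the labels and the study's methods, cortical RNA of 8 mice was sequenced with paired ends, aligned by the authors to GRCm38 with HISAT2 2.0.5 and counted per gene with featureCounts 1.5.0-p3. The deposited values are raw counts, and the authors ran DESeq2 1.20.0 on them. Strand and multiple-mapping settings are not given in the sources used here.

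From these counts, 17195 of 54532 genes were kept with edgeR's filterByExpr, normalized with TMM factors (0.990 to 1.01) and compared with edgeR 4.0.16 (glmQLFit, glmQLFTest, 2-sided, no covariates) in R 4.3.3. P-values were adjusted by Benjamini-Hochberg over all genes tested. The unadjusted threshold of 0.05 follows the study's selection. CPM are TMM-normalized counts scaled to the library's total over the genes kept. Log2 values for pairs and for likeness used a prior count of 2. Alternative fits used the Wald test of DESeq2 1.42.0, voom of limma 3.58.1, size factors of DESeq2, a minimum of 1 count in any mouse, a minimum of 10 in each mouse or protein-coding genes only, or left out 1 mouse. The code was tested on simulated counts with genes changed by known folds. Named genes were the 8 members, Adrb1, the wider pathway genes past the threshold and lowest ligands, the 2 genes most like each member, and genes overlapping a member. Other pathway genes and markers were named after their values were seen. The members and the lists of pathway genes and cell type markers were chosen with earlier results of these data known. The mice are separate animals, and controls were littermates per the study's methods. Litters are not in the labels, so the fits hold no litter term and differences between litters stay in the spread between mice. Totals were 14653222 to 21223754 counts per mouse. Some genes of the pathway and marker lists are not reported here and were left out of the lists' counts and sums.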

Additional observations from a re-analysis of the deposited data

Results flagged for a closer look

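Values far from the rest of their group were looked for in 34 groups of 4 mice with Dixon's criterion, which by chance alone marks about 1 in 20 groups. It marked 3. Ntf3 had 1.48 CPM in Adrb1-A187V;PS19 mouse 2, whereas the other 3 mice of that genotype had 0.480 to 0.616 CPM. Ntrk3, the gene of the receptor of neurotrophin 3, had 229.9 CPM in the same mouse, whereas the other 3 had 201 to 206 CPM. The summed CPM of the 6 endothelial markers was 196.0 in PS19 mouse 4, whereas the other 3 PS19 mice had 232.9 to 237.3.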

How the results depend on the processing

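Bdnf, Ntrk3, Sort1 and Gfra2 kept their direction in all 14 alternative fits. Gfra1 did too, but it was chosen for genotypes that do not overlap, so leaving out 1 mouse could not reverse it. The log2 fold change reversed for Ntf3 without PS19 mouse 3 (-0.0027) and without Adrb1-A187V;PS19 mouse 2 (-0.21), for Ntrk2 without PS19 mouse 3 (-0.010), and for Ret without PS19 mouse 3 (-0.037) and without Adrb1-A187V;PS19 mouse 2 (-0.048). With 1 mouse left out it reached 0.49 for Ntf3, 0.069 for Ntrk2 and 0.17 for Ret. Ntf3 could not be fitted under a minimum of 10 counts per mouse. Of the 7 members other than Gfra1, 1 had an unadjusted p under 0.05, and between 0 and 3 did when 1 mouse was left out. The number of members whose genotypes did not overlap was 1, which is Gfra1, chosen for this property, beside 2.02% of all genes tested. It lay between 1 and 3 with 1 mouse left out: Bdnf and Sort1 joined Gfra1 without PS19 mouse 1, and Ntrk3 joined it without Adrb1-A187V;PS19 mouse 2. Fewer mice meet this criterion more easily, and the share of all genes with 1 mouse left out was not computed. Wider pathway genes under the threshold, without Gfra1, were 3, and between 1 and 6 with 1 mouse left out. With no filter beyond 1 count, 2 of the 7 members and 6 pathway genes were under it. That setting also gave 1366 of 33614 genes in place of 481 of 17195, and an adjusted p under 0.05 for 66 genes, none of them 1 of the 7 members. DESeq2 gave 555 of 33614 and limma-voom 492 of 17195 genes with an unadjusted p under 0.05, and both gave 0 with an adjusted one. Of the pairs of members, 0 had an adjusted p under 0.05 with deviations from the genotype means or DESeq2's size factors. The causes of these differences were not tested. The study's methods state that controls were littermates. No paired analysis was possible because neither a litter nor a number shared between the genotypes is in the labels. Counting error was largest for Ntf3 (27.9%) and Ret (10.8%), beside spreads between mice of 53.9% and 17.1%.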

Other observations

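Of the cell types whose markers were summed, 4 had no marker past the unadjusted threshold in edgeR's test, apart from the striatal list given above. The 6 oligodendrocyte markers summed to between 4931 and 6625 CPM in PS19 and between 5169 and 6165 CPM in Adrb1-A187V;PS19 mice. The 6 microglial markers summed to between 321 and 535 CPM and between 313 and 509 CPM, and the 6 endothelial markers to between 196.0 and 237 CPM and between 203 and 248.9 CPM. The 6 markers of dentate granule neurons, a cell type of the hippocampus, summed to between 34.4 and 50.4 CPM in PS19 and between 35.5 and 40.6 CPM in Adrb1-A187V;PS19 mice. The ratio of Ntrk2 to Ntrk3 CPM was 3.47 ± 0.477 (SD, n = 4) in PS19 mice, beside 3.79 ± 0.319 (SD, n = 4) with the mutation, and the groups overlapped.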
